A study of Mus musculus with 2 samples.

Results

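The genes described are 10 of the 27998 listed in the deposited matrices: Hif1a, Slc2a1, Hk2, Aldoa, Gapdh, Pgk1, Eno1, Pkm, Ldha and Tpi1. They were taken by symbol as a set of glycolysis and hypoxia-response genes, and all 10 had counts in both libraries. They were measured in macrophages sorted from the mouse small intestine, with the 10x Genomics single-cell 3′ v2 kit, which tags each captured mRNA with a unique molecular identifier (UMI) near its 3′ end and counts the tags cell by cell. The wild-type (WT) library came from male C57BL/6J mice from the breeder Janvier, and its cells were run in 2 lanes that share 1 suspension. The knockout library came from CCR2-/- mice of a JAX strain bred in-house, whose sex is not in the labels, and no age is given for either genotype. Ccr2 encodes a chemokine receptor needed for monocytes to exit the marrow and reach the gut, so the comparison asks what differs in gut macrophages when that supply route is removed.

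For each genotype, digests of 3 to 4 intestines were pooled before the sort, after removal of the epithelium and treatment with Liberase TL. The sort kept live CD45+ cells that carried CD11b, MHC class II and CD64 and lacked lymphocyte, eosinophil and neutrophil markers and Ly6C. There was 1 library per genotype, so no comparison of the genotypes has a replicate, no test was run, and genotype, breeder and library cannot be told apart. Fewer cells of a type and less RNA per cell cannot be told apart in summed counts either.

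Glycolysis splits glucose into pyruvate in the cytosol. Glucose enters through transporters such as Slc2a1 (GLUT1) and is trapped by a hexokinase such as Hk2; aldolase (Aldoa) and triosephosphate isomerase (Tpi1) make the triose phosphates; Gapdh, Pgk1, Eno1 and Pkm carry these to pyruvate and recover ATP and NADH; and Ldha turns pyruvate into lactate, which regenerates NAD+. Hif1a encodes the oxygen-regulated subunit of hypoxia-inducible factor 1, which is destroyed in oxygenated cells after prolyl hydroxylation and otherwise pairs with Arnt at a short core motif in its targets, many of them glycolytic genes. HIF-1α protein is controlled mainly by its stability, which mRNA counts do not show. Macrophages can raise glycolysis and Hif1a on inflammatory stimulation as well as in low oxygen.

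Cells below 200 detected genes or above 10% mitochondrial UMIs were left out, which retained 3016 of 3054 WT cells (2109 in lane 1 and 907 in lane 2) and 2612 of 2774 knockout cells. The depth of the libraries differed: the median was 6129 UMIs and 1968.5 genes per WT cell against 2439 UMIs and 1098 genes per knockout cell, from totals of 20678108 and 7265386 UMIs. Of the UMIs, 20.9% were from ribosomal protein genes in WT and 13.4% in the knockout, and 3.08% and 4.13% were mitochondrial. Ccr2 stood at 331 CPM (UMIs of the gene per 1000000 UMIs of the library) in WT and at 6.88 CPM, 50 UMIs, in the knockout; where on the transcript those 50 UMIs lie is not known from the matrices. The labelled cell type was checked on 8 macrophage markers, all 8 of which had UMIs in every library and lane, with summed levels of 14583 CPM in WT and 11316 CPM in the knockout. The 5 neutrophil markers summed to 34.7 and 45.3 CPM, with S100a8 and S100a9 at 0 UMIs in both libraries. Of the barcode sequences, 6 were shared between the genotypes and 5 between the WT lanes.

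The hypoxia-inducible factor core motif is written here as ACGTG, with the close form GCGTG, and was searched on both strands in the 250 bases before each RefSeq transcription start (GRCm38.p6). All 10 genes had at least 1 such window and they had 16 in all, of which 13 held at least 1 match. Windows of 1 gene can overlap and share a match. In at least 1 window, 9 of the 10 genes had a match, and Tpi1 had none. With 1 window per gene, the one with the most GENCODE M21 starts near its own, 7 of the 10 genes had a match. Where windows of a gene tied, the first listed was taken. Among the 32851 windows of that length in the RefSeq table, 38.6% held at least 1 match of either form, 16.6% held ACGTG and 28.2% held GCGTG. These shares are by window, and no share by gene was counted over all genes. A match is a description of the letters and not a bound site. The windows of 4 genes are shown because they stand for the contrasts described below: Hk2 was higher in the knockout library, Gapdh and Eno1 were the most lowered members, and Ldha held the most matches. They are chr6:82774455-82774704 on the minus strand (Hk2), chr6:125165774-125166023 on the minus strand (Gapdh), chr4:150236458-150236707 on the plus strand (Eno1) and chr7:46845554-46845803 on the plus strand (Ldha). None of the 4 windows overlaps a GENCODE M21 exon of its gene. Each is written 5′ to 3′ on the strand of its gene, in lower case, with the matches in capitals.
Hk2 promoter: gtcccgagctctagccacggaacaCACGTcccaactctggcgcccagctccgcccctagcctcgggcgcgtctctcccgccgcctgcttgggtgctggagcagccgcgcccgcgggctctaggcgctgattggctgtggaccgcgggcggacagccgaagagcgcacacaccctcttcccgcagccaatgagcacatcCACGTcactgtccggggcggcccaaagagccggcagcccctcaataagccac
Gapdh promoter: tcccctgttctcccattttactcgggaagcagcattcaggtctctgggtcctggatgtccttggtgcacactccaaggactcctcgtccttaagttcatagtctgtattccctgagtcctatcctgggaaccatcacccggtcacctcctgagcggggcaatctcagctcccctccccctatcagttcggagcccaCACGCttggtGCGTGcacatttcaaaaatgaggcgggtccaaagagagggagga
Eno1 promoter: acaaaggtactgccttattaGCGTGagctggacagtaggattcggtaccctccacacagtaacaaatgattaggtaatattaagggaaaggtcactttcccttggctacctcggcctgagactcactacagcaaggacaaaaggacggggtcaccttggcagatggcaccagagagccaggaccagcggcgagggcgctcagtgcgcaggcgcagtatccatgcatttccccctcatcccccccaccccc
Ldha promoter: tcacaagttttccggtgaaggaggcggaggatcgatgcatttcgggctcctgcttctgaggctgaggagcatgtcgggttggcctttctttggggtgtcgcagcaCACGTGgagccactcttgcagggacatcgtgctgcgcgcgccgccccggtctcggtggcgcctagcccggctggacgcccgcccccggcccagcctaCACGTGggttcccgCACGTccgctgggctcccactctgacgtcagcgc
In the windows shown, Hk2 has its matches starting 226 and 52 bases before the start site, Gapdh 54 and 44 bases before it and Eno1 230 bases before it. Other Eno1 windows, not shown, each hold 2 CACGC matches closer to their own starts. The Ldha window shown has 5 matches, starting 145, 144, 48, 47 and 34 bases before its start. Each of its runs of CACGTG reads as a match on both strands and so counts as 2. A further Ldha window, not shown, holds 1 match. Both the gene that was higher in the knockout library and those that were lower have matches.

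In the summed counts, the knockout library had less RNA from most of the glycolytic enzymes among the members and more from Hk2, Slc2a1 and Hif1a. Gapdh, Eno1, Tpi1, Pkm, Ldha and Aldoa were all at least 1.5-fold lower in the knockout, led by Gapdh at 2.97-fold (95% interval 2.82 to 3.13) and Eno1 at 2.70-fold (2.37 to 3.08). Hk2, Hif1a and Slc2a1 were higher, by 1.40-fold, 1.27-fold and 1.45-fold against the summed WT library; against single lanes Slc2a1 was 1.53-fold above lane 1 and Hif1a 1.60-fold above lane 2. At matched depth per cell the median log2 ratio of the members was smaller, to an extent that varied with the match. Among cells with 2000 to 4000 UMIs, Gapdh and Eno1 were the members still at least 1.5-fold lower, and Aldoa was higher. The median was -0.65 over all cells and -0.02 in that range. It was -0.34 at 4000 to 8000 UMIs, -0.26 at 1000 to 2000 UMIs and -0.55 with every cell thinned to 1000 UMIs. The -0.26 counts Slc2a1, with 0 WT UMIs in that range, as higher. Without Slc2a1 the median there was -0.40. Levels are UMIs summed over cells and scaled to CPM, intervals are exact Poisson intervals at the 95% level that cover counting error only, and log2 ratios were computed after adding 1 CPM.

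The regulator Hif1a (chr12:73901375-73947530) stood at 128 CPM in WT lane 1, 93.7 CPM in WT lane 2 and 150 CPM in the knockout. The knockout was above both lanes, with a log2 ratio over the summed WT library of 0.35 (95% interval 0.24 to 0.45), but the lanes of the same WT suspension differed by more than that, lane 2 over lane 1 being -0.45. The gap between genotypes for Hif1a was therefore within what the lanes showed.

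Slc2a1 and Hk2, the members for glucose entry and phosphorylation, were also higher in the knockout. Slc2a1, the glucose transporter (chr4:119108711-119137983), was thinly counted, with 206 UMIs in WT and 105 in the knockout, which gives 9.47 CPM in lane 1, 11.1 CPM in lane 2 and 14.5 CPM in the knockout. Its log2 ratio of knockout to WT was 0.50, with a wide interval of 0.18 to 0.88. Hk2, the hexokinase that is induced in activated and hypoxic cells (chr6:82725025-82774454), was at 232 CPM in lane 1, 219 CPM in lane 2 and 319 CPM in the knockout. The Hk2 ratio of 0.48 (0.41 to 0.56) stood well outside the difference between the lanes, which was -0.08.

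The triose-forming enzymes were lower in the knockout. Aldoa (chr7:126795234-126800751), which cleaves fructose bisphosphate, had 152 CPM in lane 1, 215 CPM in lane 2 and 110 CPM in the knockout, a log2 ratio of -0.63 (-0.75 to -0.52). The lanes themselves differed for Aldoa by 0.51, the widest lane gap among the 10 genes, so its distance from lane 1 was much smaller than that from lane 2. Tpi1 (chr6:124810586-124814296), which interconverts the triose phosphates, had 76.5 CPM in lane 1, 80.9 CPM in lane 2 and 36.3 CPM in the knockout. That is 2.14-fold lower (1.88 to 2.45), against a lane difference of 0.08 on the log2 scale.

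The greatest differences were in Gapdh and Eno1, among the steps from triose phosphate to pyruvate. Gapdh (chr6:125161715-125166467), which oxidises glyceraldehyde phosphate, had 609 CPM in lane 1, 739 CPM in lane 2 and 218 CPM in the knockout, a log2 ratio of -1.57 (-1.65 to -1.50). Eno1 (chr4:150236721-150248879), the enolase that makes phosphoenolpyruvate, had 92.1, 112 and 36.3 CPM in the same order and a log2 ratio of -1.41 (-1.62 to -1.25). Both lanes of each gene stood more than 2-fold above the knockout. Pkm (chr9:59656368-59679375), pyruvate kinase, had 206 CPM in lane 1, 247 CPM in lane 2 and 135 CPM in the knockout, a log2 ratio of -0.69. The 3′ counts do not separate its M1 and M2 splice forms. Pgk1 (chrX:106187100-106203699), phosphoglycerate kinase, was counted 253 times in WT and 72 times in the knockout, at 12.1 and 12.6 CPM in the lanes and 9.91 CPM in the knockout, and its interval of -0.70 to 0.08 included no difference. Ldha (chr7:46841475-46855627), at the branch to lactate, had 231 CPM in lane 1, 273 CPM in lane 2 and 152 CPM in the knockout, a log2 ratio of -0.67 (-0.77 to -0.58).

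**Figure D1:**
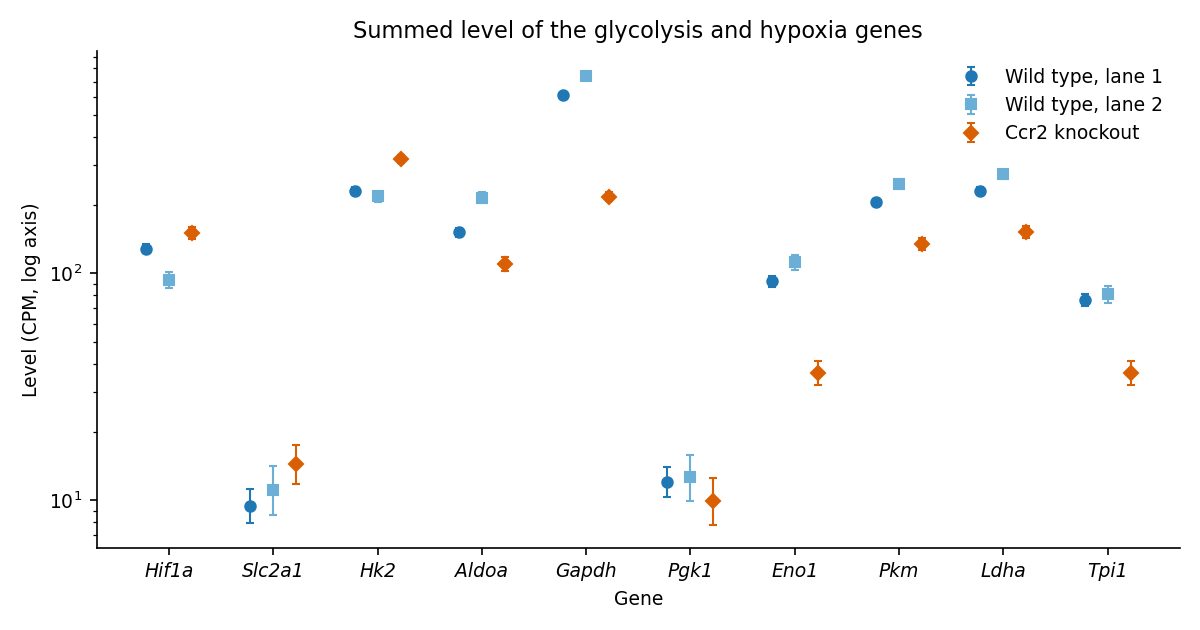
Summed level of each gene in WT lane 1, WT lane 2 and the Ccr2 knockout library, in CPM on a log axis. Points are levels of whole libraries or lanes and bars are 95% Poisson intervals for counting error. Gapdh, Eno1, Tpi1, Pkm, Ldha and Aldoa lie below both WT lanes in the knockout, and Hif1a, Slc2a1 and Hk2 lie above both.

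Counted together, 3 of the 10 members were higher and 7 lower in the knockout library. The median log2 ratio was -0.65 against 0.18 over the 7401 genes with a mean of at least 10 CPM. Of those 7401 genes, 4612 were higher and 2789 lower. At least 1.5-fold lower were 6 of 10 members, while 13% of all those genes were at least 1.5-fold lower. None of the 10 was at least 1.5-fold higher, against 25% of all genes. Between the WT lanes, which are a technical yardstick and not replicates, 8 of 10 members were higher in lane 2 with a median of 0.23 and none past 1.5-fold; the background there was 0.257% of genes higher and 8.49% lower by that fold. The members' combined share of UMIs was 0.175% in lane 1, 0.200% in lane 2 and 0.118% in the knockout. Several of these genes have near-identical copies elsewhere in the genome, in particular processed pseudogenes of Gapdh and the Eno1 copy Eno1b, and how reads were divided among copies is not known here; Eno1b itself was at 7.30 CPM in WT and 7.43 CPM in the knockout.

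Other transcripts moved with the genotype. The 9 immediate-early genes (all 9 with UMIs in both libraries), which dissociation and handling induce, summed to 6027 CPM in WT and 22675 CPM in the knockout, and the 5 heat-shock genes to 1541 and 678 CPM. The 4 erythroid globin genes summed to 761 and 7429 CPM, the WT sum being 1078 CPM in lane 1 and 3.44 CPM in lane 2, the 5 fibroblast markers to 26.1 and 232 CPM, the 4 endothelial markers to 51.9 and 182 CPM, and the 8 monocyte markers to 653 and 156 CPM. All genes of these lists had UMIs in both libraries. The part of these RNAs in the members' ratios was not tested. In cells with at least 3 C1q UMIs and no UMI of the T cell, B cell, plasma cell, fibroblast, endothelial and epithelial lists (935 WT and 931 knockout cells, median 4171 and 1846 UMIs), the log2 ratios were -1.45 for Gapdh, -1.43 for Eno1, -1.15 for Tpi1, -0.77 for Pkm, -0.61 for Ldha and -0.37 for Aldoa. Hk2 was at 0.54, Hif1a at 0.09 and Pgk1 at -0.11 in those cells, and Slc2a1 was 2.08-fold higher (1.32 to 3.29), at 0.98. The ratios of Gapdh, Eno1, Tpi1 and Pkm were close to those over all cells, and depth still differed between the genotypes. With the same gate and 2000 to 4000 UMIs per cell (362 WT and 334 knockout cells), they were -0.83, -0.89, -0.02 and -0.74; the Tpi1 value rested on 36 WT and 32 knockout UMIs, with an interval from -0.76 to 0.71.

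The depth of a cell and the levels of these genes went together within each library. In WT, cells with at least 8000 UMIs (1024 cells) had higher CPM of most glycolytic genes than cells with 2000 to 4000 UMIs (713 cells): Eno1 was at 123 against 44.0 CPM, Gapdh at 777 against 364 CPM and Aldoa at 195 against 94.2 CPM. Tpi1 was 1.93-fold higher in the deeper cells, Ldha 1.72-fold, Pkm 1.55-fold and Pgk1 1.51-fold, the last from 21 UMIs in the shallower cells. Hif1a and Hk2 went the other way, at 107 against 154 CPM and at 214 against 297 CPM. So 7 of 10 members were at least 1.5-fold higher in the deeper WT cells, while 7.71% of genes with a mean of at least 10 CPM were; none was 1.5-fold lower, against 22% of genes. Both lanes had the same 7 members higher and the same 3 lower, with medians of 0.62 in lane 1 and 0.75 in lane 2. In lane 2 alone Hif1a was 1.93-fold and Hk2 1.62-fold lower in the deeper cells, and Pgk1 was 1.35-fold higher.

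In the knockout the gradient had the same signs. Comparing its cells with 4000 to 8000 UMIs (525 cells) to those with 1000 to 2000 UMIs (821 cells), Gapdh was at 266 against 148 CPM and Eno1 at 44.0 against 23.1 CPM. Hif1a was at 123 against 178 CPM, and Hk2 at 297 against 330 CPM with an interval of the log2 ratio from -0.33 to 0.02. Of the members, 3 were at least 1.5-fold higher in the deeper knockout cells (9.59% of genes) and none 1.5-fold lower (18.7% of genes). Tpi1 barely differed, at 0.06 (-0.48 to 0.63). In WT the same ranges gave Gapdh 0.55, but Tpi1 -0.08 and Pgk1 -0.44, from 19 and 3 UMIs in the 147 shallowest cells. Since most members that were lower in the knockout were also lower in shallow cells, the genotypes were compared again at matched depth.

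**Figure D2:**
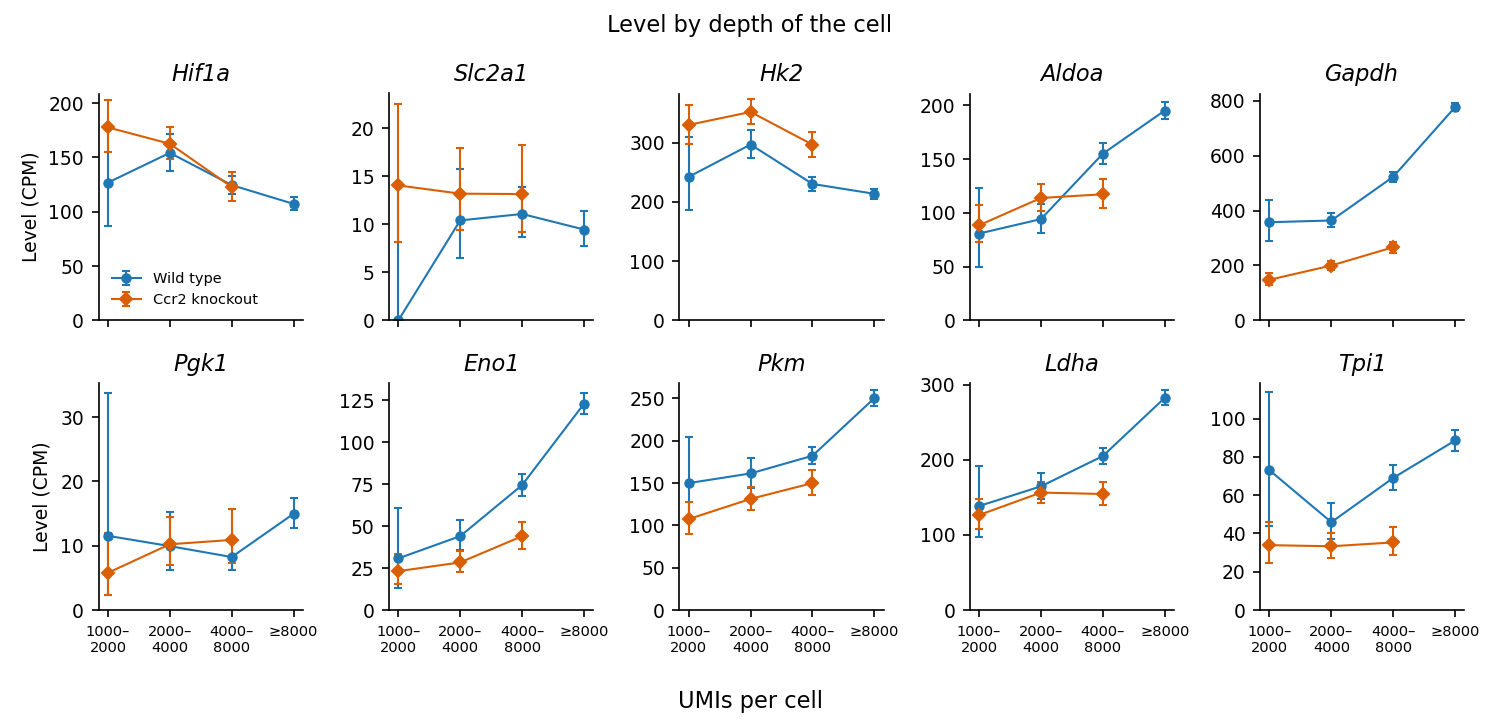
Level of each gene in CPM (linear axes from 0) by UMIs per cell, in WT cells and Ccr2 knockout cells; bars are 95% Poisson intervals. The knockout bin of 8000 or more UMIs, with 19 cells, is not drawn. Gapdh and Eno1 are higher in deeper cells of both libraries, with the knockout below WT in each bin drawn for both. Hif1a and Hk2 do not show that upward course. In the knockout bin not drawn, Gapdh was at 410 CPM against 777 CPM in WT. Eno1 was at 166 against 123 CPM there, from 32 knockout UMIs, and Hk2 at 124 against 214 CPM, from 24 knockout UMIs.

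Among cells with 2000 to 4000 UMIs (713 WT cells with a median of 2940 UMIs and 1051 knockout cells with a median of 2824), the median log2 ratio of the 10 members was -0.02, with 5 higher and 5 lower. The all-gene median was 0.05, and 11.7% of 7452 genes were at least 1.5-fold lower and 15.9% higher. Gapdh was at 364 CPM in WT and 200 CPM in the knockout, 1.82-fold lower (1.63 to 2.03), and Eno1 at 44.0 and 28.4 CPM, 1.55-fold lower (1.14 to 2.10). Both differences were smaller than over all cells. Tpi1 was 1.38-fold lower (1.03 to 1.84) and Pkm 1.23-fold lower (1.06 to 1.42). Ldha, at 165 and 156 CPM, and Hif1a, at 154 and 163 CPM, had intervals that included no difference, as did Pgk1 and Slc2a1. Hk2 was 1.19-fold higher in the knockout (1.07 to 1.31). Aldoa, lower in the knockout over all cells, was at 94.2 CPM in WT and 114 CPM in the knockout here, a log2 ratio of 0.27 (0.02 to 0.53). Set against each WT lane alone in this range, Gapdh had -0.77 and -1.08, Eno1 -0.55 and -0.78, Hk2 0.28 and 0.14, and Aldoa 0.28 and 0.26. In these cells too the immediate-early sum differed, 7264 CPM in WT and 23735 CPM in the knockout, as did the ribosomal share, 19.5% and 12.8%. Erythroid RNA was at 15.1 and 455 CPM and the macrophage markers at 10603 and 11338 CPM. Mitochondrial UMIs were 4.82% in these WT cells, 2.56% in WT cells with at least 8000 UMIs, and 4.22% in these knockout cells. The part of these RNAs in the ratios was not tested.

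In the range of 4000 to 8000 UMIs (1131 WT and 525 knockout cells), where the WT cells remained deeper with a median of 5880 against 4810 UMIs, Gapdh was at 523 and 266 CPM, Tpi1 at 69.0 and 35.3 CPM and Eno1 at 74.4 and 44.0 CPM. These 3 were at least 1.5-fold lower in the knockout, against 9.06% of genes; Aldoa (-0.40), Ldha (-0.41) and Pkm (-0.28) were lower by less, and the Hif1a ratio was -0.02. Of the cells with 1000 to 2000 UMIs only 147 were WT; there Gapdh was at 358 and 148 CPM, a log2 ratio of -1.27, Tpi1 had -1.09, and 18.7% of genes were at least 1.5-fold lower, while Slc2a1 had 0 WT UMIs and is given no ratio. Gapdh was the one member at least 1.5-fold lower, with an interval below 0, in each of the 3 depth ranges. Thinning every cell to 1000 UMIs, which evens out detection but leaves each cell's composition as it was, gave a median of -0.55, with Gapdh at -1.48, Eno1 at -1.41 and Tpi1 at -0.90 and no other member past 1.5-fold; 13.2% of genes were that much lower.

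**Figure D3:**
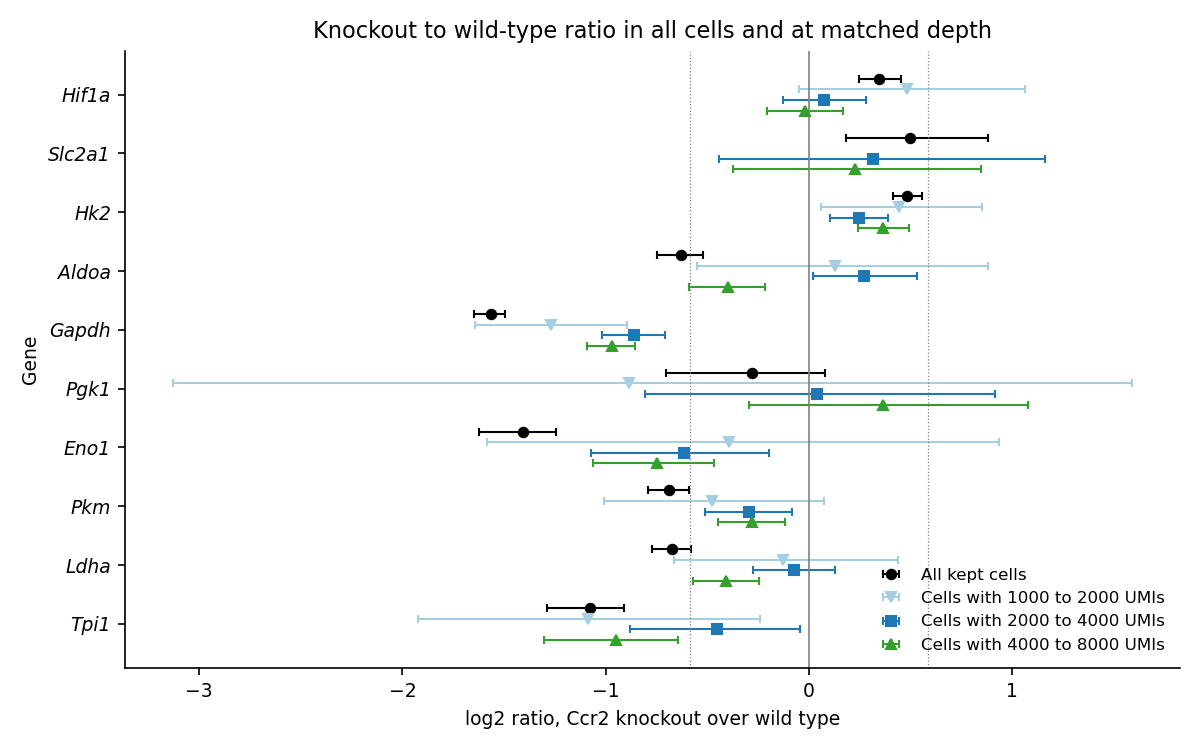
log2 ratio of knockout to WT for each gene in all kept cells and in 3 ranges of UMIs per cell, with 95% intervals for counting error; dotted lines mark 1.5-fold in either direction. Slc2a1 has no point at 1000 to 2000 UMIs, where WT had 0 UMIs of it. Gapdh stays to the left of the 1.5-fold line in every range, and Aldoa crosses 0.

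WT macrophages were next ordered by their own Ccr2 counts, since recruited monocytes are known to lose Ccr2 as they mature into gut macrophages. Classes of 0, 1, 2 to 4 and at least 5 Ccr2 UMIs held 1692, 322, 432 and 570 cells. Along them the 8 monocyte markers, which include Ccr2 itself, summed to 150, 342, 833 and 1556 CPM, and the 8 macrophage markers to 16766, 14451, 11913 and 12236 CPM. Depth was not level: the median was 5303 UMIs in the class with none and 9378 in the top class, since a deeper cell yields more Ccr2 UMIs. The ribosomal share went from 17.7% to 25.4%, and plasma cell markers from 2599 to 124 CPM; the part of these in the levels below was not tested.

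Eno1 was the member with the greatest difference over the classes. Its levels were 80.9, 78.4, 89.3 and 140 CPM from 0 to at least 5 Ccr2 UMIs, with the top class highest. In lane 2 the lower 3 classes were less even, at 91.1, 66.5 and 112 CPM, and after thinning to 3000 UMIs the 4 classes were at 81.2, 98.4, 104 and 133 CPM. The top class was 1.73-fold above the class with none (1.57 to 1.91), and the log2 ratio was 0.74 in lane 1 and 0.91 in lane 2. Gapdh went 591, 646, 636 and 754 CPM, a log2 ratio of 0.35 between the end classes, with 0.37 and 0.35 in the lanes. Tpi1 went 71.8, 72.6, 71.0 and 93.8 CPM, a ratio of 0.38, again with the top class above the other 3. Pkm (0.18) and Pgk1 (0.36, with an interval that included no difference) were higher by less.

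Hk2 had the opposite course. Its levels were 231, 272, 264 and 186 CPM, so the intermediate classes were highest and the top class lowest, in both lanes; the end classes differed by -0.32 (-0.42 to -0.21). Hif1a was highest in the class with 2 to 4 Ccr2 UMIs, at 142 CPM, against 110, 121 and 117 CPM in the classes with 0, 1 and at least 5, and the same class was highest in each lane. Ldha was at 242 CPM with no Ccr2 UMI and 243 CPM with at least 5. Aldoa had its lowest level, 134 CPM, in the class with 2 to 4, against 183 and 167 CPM at the ends. Slc2a1 was at 10.8 CPM in the class with none and 6.91 CPM, 39 UMIs, in the top class.

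Across the end classes 7 members were higher and 3 lower in Ccr2-rich cells, with a median log2 ratio of 0.13 over all 10. Slc2a1, which was 1.56-fold lower (1.07 to 2.31), did not reach a mean of 10 CPM in these classes. Over the other 9 the median was 0.18, against -0.09 over the 6999 genes that reached it; Eno1 was at least 1.5-fold higher, where 4.43% of genes were, and none of the 9 was at least 1.5-fold lower, where 9.87% were. No member was higher at each step from class to class, against 6.28% of 7068 genes, and none was lower at each step, against 12.7%. In lane 2 alone Gapdh was higher at each step (4.76% of genes), and after thinning to 3000 UMIs Eno1 and Tpi1 were (6.39%). In cells with 4000 to 8000 UMIs, where medians ran from 5755 to 6429 UMIs in the end classes, the log2 ratios were 0.63 for Eno1, 0.62 for Tpi1, 0.26 for Gapdh (0.13 to 0.39) and -0.52 for Hk2. With every cell thinned to 3000 UMIs before the classes were made (2492 cells, 130 of them in the top class), Eno1 had 0.71 and Hk2 -0.45, while the intervals of Tpi1 (0.40, from -0.15 to 0.92) and Gapdh (0.03, from -0.16 to 0.23) included no difference. Eno1 and Hk2 kept their direction under both treatments of depth, with intervals that left out no difference. For Gapdh the thinned classes were at 589, 611, 627 and 603 CPM, so its top class was no longer the highest.

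**Figure D4:**
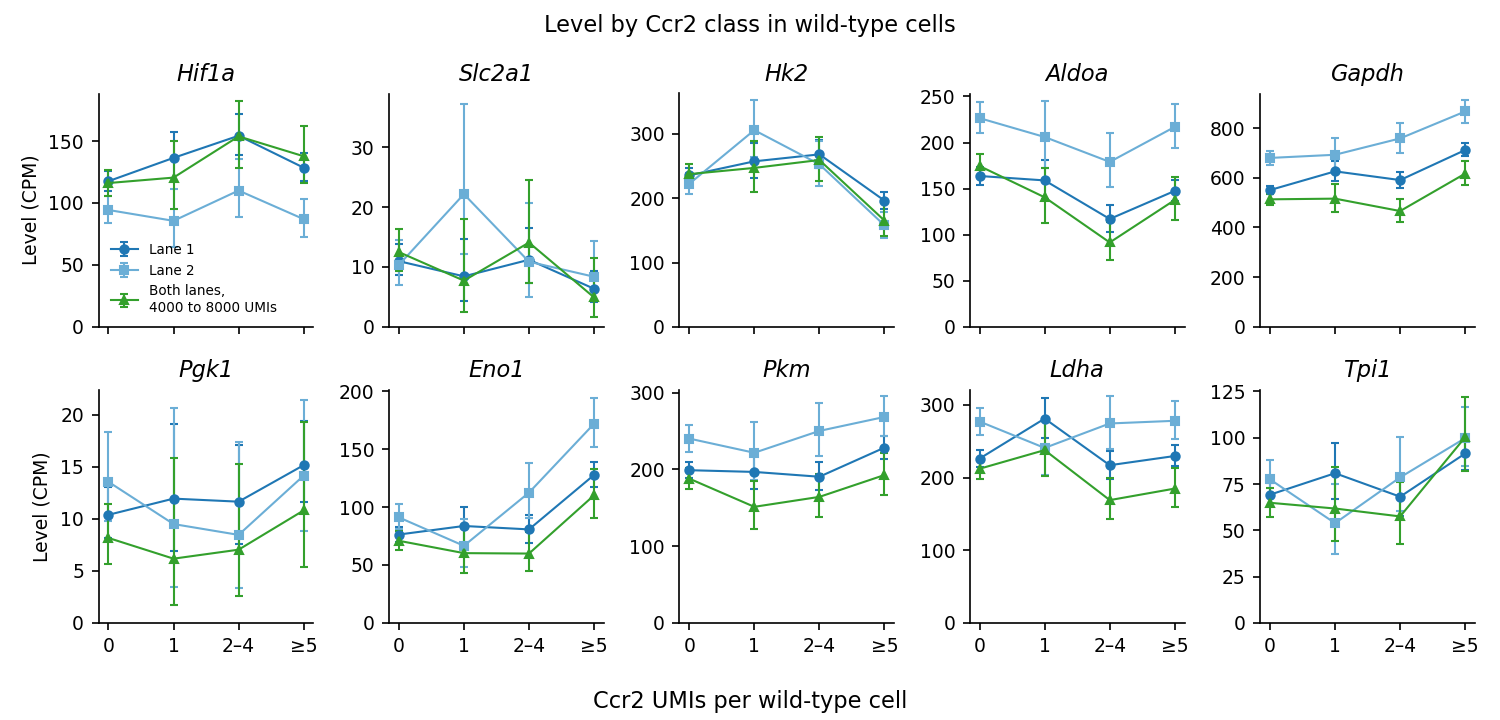
Level of each gene in CPM (linear axes from 0) by Ccr2 UMI class in WT cells of lane 1, lane 2 and both lanes restricted to cells with 4000 to 8000 UMIs; bars are 95% Poisson intervals. Eno1 is highest in the class with at least 5 Ccr2 UMIs in all 3 series, and Hk2 is lowest there.

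The genotypes were also compared without the WT cells in which Ccr2 was counted. Against WT cells with no Ccr2 UMI, the knockout library had the same 3 members higher and the same 7 lower, with a median of -0.66; Gapdh was 2.71-fold lower (2.56 to 2.87) and Eno1 2.23-fold lower (1.93 to 2.57). With both sides also held to 4000 to 8000 UMIs, Gapdh was at 513 CPM in 713 WT cells and 266 CPM in the knockout, Eno1 at 70.9 and 44.0 CPM, Tpi1 at 64.9 and 35.3 CPM, and Hk2 at 237 and 297 CPM. A cell with no Ccr2 UMI may still carry Ccr2 mRNA at these depths.

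The rest of the glycolysis machinery was taken from a list of 25 further genes, of which 8 reached a mean of 10 CPM. Of these, 5 were lower and 3 higher in the knockout library, where 2789 of all 7401 genes were lower and 4612 higher. The median log2 ratio of the 8 was -0.39, against 0.18 over all genes. Gpi1, the isomerase after hexokinase, was at 146 CPM in WT and 87.7 CPM in the knockout. The phosphofructokinase subunits Pfkl and Pfkp had -0.40 and -0.48, and the mutase Pgam1 -0.38. Pfkfb3, whose product makes the allosteric activator of phosphofructokinase, was higher, at 28.4 CPM in WT and 49.7 CPM in the knockout (0.79), and stayed so among cells with 2000 to 4000 UMIs (0.62), where Gpi1 was at -0.14. Hk2 was likewise higher in the knockout at both settings, while the interval of Hif1a at 2000 to 4000 UMIs included no difference. The other hexokinase genes that reached the minimum, named after their values were seen, went in opposite directions, Hk1 at -0.42 and Hk3 at 0.30. The transporter gene Slc2a3 (1.89 and 4.96 CPM) and the lactate exporter gene Slc16a3 (3.34 and 2.75 CPM) were below the minimum. So was the transporter gene Slc2a6, also named after its values were seen, at 8.95 CPM in WT and 0.963 CPM in the knockout.

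The HIF pathway's own regulators were counted from a list of 10 genes. All 7 that reached a mean of 10 CPM were higher in the knockout, as were 4612 of all 7401 such genes. Their median was 0.61, against 0.18 over all genes, and 4 of the 7 were at least 1.5-fold higher, as were 25% of all genes. They include Arnt, the partner subunit, at 25.1 CPM in WT and 40.3 CPM in the knockout (0.66); the ubiquitin ligase gene Siah1a (0.92); the prolyl hydroxylase genes Egln1 (0.65) and Egln2 (0.47); and Vhl (0.39), whose product directs hydroxylated HIF-α to degradation. The interval of Hif1an over all cells, -0.08 to 0.66, included no difference. At matched depth of 2000 to 4000 UMIs, 4 were higher and 3 lower of the 7 that reached the minimum there. Of all 7452 genes at that depth, 4030 were higher and 3422 lower. The median of the 7 was 0.18, none was past 1.5-fold, and Egln1 had -0.20. Epas1, which encodes HIF-2α and is abundant in endothelium, was at 0.629 CPM in WT and 11.3 CPM in the knockout, where the endothelial markers were also higher as given above. Egln3 had 2 UMIs in each library.

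Hypoxia-inducible genes outside glycolysis did not follow the enzymes. Of 23 listed genes 13 reached the minimum. Of these, 10 were higher and 3 lower in the knockout library, where 4612 of all 7401 genes were higher and 2789 lower. Their median was 0.49, against 0.18 over all genes. At least 1.5-fold higher were 6 (25% of all genes) and at least 1.5-fold lower 2 (13%). The transcriptional repressor gene Bhlhe40 was at 36.1 CPM in WT and 116 CPM in the knockout (1.66), Hilpda, a lipid-droplet protein gene, at 25.5 and 67.7 CPM (1.37), and Mxi1, which encodes a MYC antagonist, at 17.7 and 39.4 CPM (1.11). These 3 were also higher in the knockout at 2000 to 4000 UMIs, with 1.37, 1.78 and 0.91. At that depth 8 of the 13 genes that reached the minimum were higher, as were 4030 of all 7452 genes. At least 1.5-fold higher were 4 of the 13 (15.9% of all genes). The 2 genes at least 1.5-fold lower, named after their values were seen, were Higd1a (-0.83), a mitochondrial protein gene, and the cytokine gene Mif (-0.82). Vegfa, below the minimum, was at 2.71 CPM in WT and 5.37 CPM in the knockout. Several genes of this list, Bhlhe40 among them, are also known to respond to growth factors and stress, and the immediate-early sum differed in the same direction; its part was not tested.

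**Figure D5:**
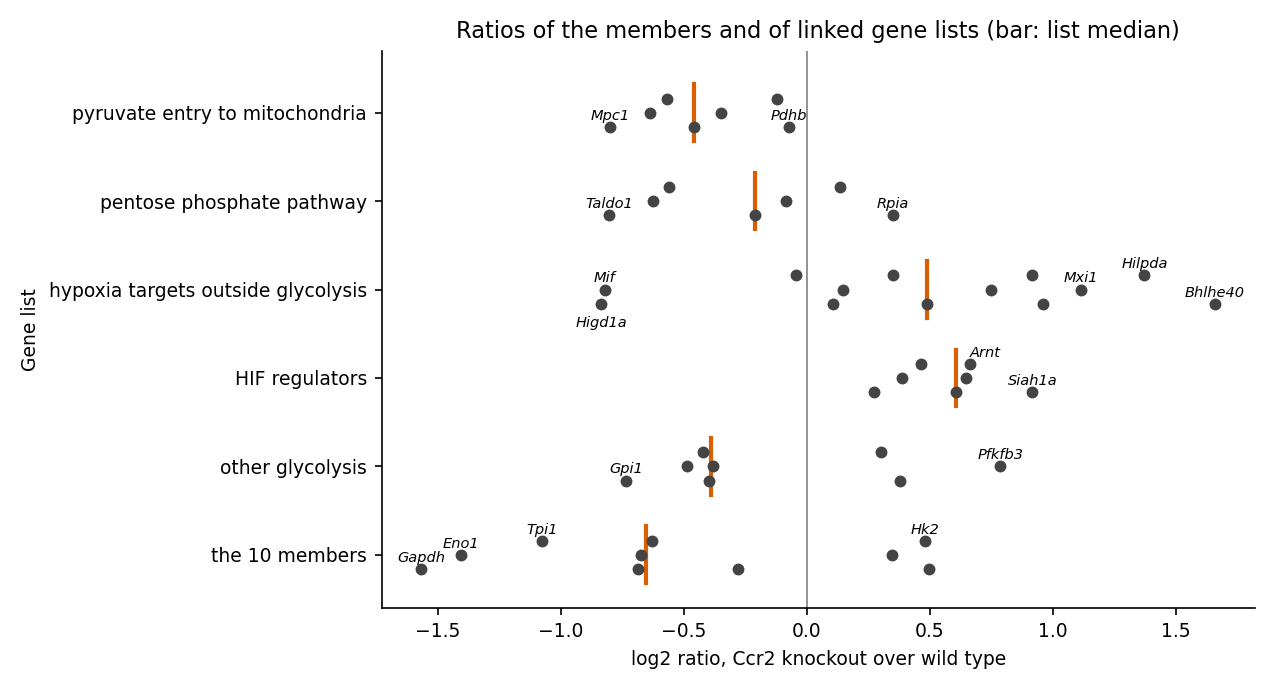
log2 ratio of knockout to WT in all kept cells for the 10 members and for 5 lists of linked genes, for genes with a mean of at least 10 CPM; each point is 1 gene, and the bar is the list's median. The medians are -0.65 for the members, 0.61 for HIF regulators and 0.49 for hypoxia targets outside glycolysis.

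From cell to cell, Hk2 had the highest ratio of variance to mean among the 10 genes. With cells thinned to 2000 UMIs, the variance of its count over the mean was 1.56 in 2868 WT cells and 2.10 in 1595 knockout cells, where counting alone gives a value near 1; this lay at the 92.0th percentile of 415 genes of like mean in WT and at the 96.0th of 326 in the knockout. The highest Hk2 count in a thinned cell was 7 UMIs in WT and 16 UMIs in the knockout. Gapdh had 1.36 in WT and 1.10 in the knockout, and Tpi1 1.16 and 1.11, at the 92.4th percentile of 1523 genes of like mean in WT and the 59.9th of 2284 in the knockout. The 10 genes were nearly unrelated to each other across single cells: Pearson's r over the 45 pairs ran from -0.04 to 0.09 in WT and from -0.06 to 0.08 in the knockout, in counts this sparse.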

How the data were processed

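The authors deposited matrices of whole-number UMI counts for 1 wild-type and 1 Ccr2-knockout library; per the submitters' processing notes, Cell Ranger 3.0.1 and the genome build mm10 were used, and cell calling and any depth equalisation are not given in the sources used here. Cells with under 200 genes or over 10% mitochondrial UMIs were left out. UMIs were summed over cells and scaled to CPM; log2 ratios used a pseudocount of 1 CPM, and intervals are exact Poisson or conditional Poisson intervals at the 95% level (scipy 1.17.1, numpy 2.4.6, pandas 2.3.3, Python 3.11.15). Intervals cover counting error only, and depth was 20678108 and 7265386 UMIs.

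With 1 library per genotype no test was made. At least 1.5-fold was read against all genes with a mean of at least 10 CPM. Thinning and the ratio calculation were tested on simulated data. Doublets were not removed, except in an alternative using Scrublet scores (scanpy 1.11.5), which took out 55 knockout cells and 36 and 7 cells of the wild-type lanes. Its automatic threshold marked 6 cells in the knockout, 0 in lane 1 and 6 in lane 2 and was not used.

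Coordinates are from GENCODE M21 (GRCm38), where 98.7% of gene identifiers were found, and promoter sequences from RefSeq (GRCm38.p6); all 10 members matched. Named besides the members were up to 3 genes per list by absolute log2 ratio and further pathway genes chosen by name, whatever their values; 1 gene of the hypoxia list is not reported here. The members, lists and markers were chosen with earlier results of these data known. Alternatives covered scaling, pseudocount, depth, cell filter, doublets, lanes, Ccr2 class, cell gate and cycling cells.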

Additional observations from a re-analysis of the deposited data

How the results depend on the processing

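No paired analysis was possible because each genotype has 1 library. The median log2 ratio of the 10 members, knockout over wild type, was -0.65 and stayed below 0 under all 15 alternatives. It moved to -0.84 with median-of-ratios size factors (which centre the all-gene median of 0.18), -0.55 after thinning to 1000 UMIs, -0.018 at 2000 to 4000 UMIs, -0.53 against lane 1, -0.85 against lane 2, -0.49 in the C1q gate, and, in alternatives added after the data were seen, -0.26 at 1000 to 2000 UMIs (Slc2a1, with 0 wild-type UMIs, counted as higher), -0.34 at 4000 to 8000 UMIs and -0.12 in the gate at 2000 to 4000 UMIs. The count of members at least 1.5-fold apart, 6, became 3 after thinning, 2 at 2000 to 4000 UMIs and 3 at 4000 to 8000 UMIs; it was 8 with at least 500 genes and at most 5% mitochondrial UMIs, where Slc2a1 (0.59) and Hk2 (0.62) were also past 1.5-fold higher, and 7 against lane 2. Aldoa changed sign to 0.27 at 2000 to 4000 UMIs, 0.13 at 1000 to 2000 UMIs and 0.29 in the gate at 2000 to 4000 UMIs; the cause was not tested. Hk2, Gapdh, Eno1, Pkm, Ldha and Tpi1 kept their sign under all 15, Slc2a1 under the 14 that gave a value, Hif1a under 13 and Pgk1 under 12. Between the Ccr2 end classes the median of 0.13 became 0.26 with mitochondrial, ribosomal protein, haemoglobin and immunoglobulin genes out of the total, the highest of 11 alternatives. The lowest was 0.03, after thinning to 3000 UMIs. In lane 2 alone the median was also 0.03, and in lane 1 alone 0.16. For the genotype medians the minimum made no difference, since all 10 members passed it; between the Ccr2 end classes Slc2a1 did not pass it, and the median over the other 9 was 0.18. Slc2a1 and Pgk1, with 105 and 72 knockout UMIs, are limited by depth.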

Other observations

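The pentose phosphate pathway branches from glucose 6-phosphate and supplies NADPH, which phagocytes use for the oxidative burst. All 7 of its listed genes reached a mean of 10 CPM, and 5 were lower and 2 higher in the knockout library, with a median log2 ratio of -0.21. Of all 7401 genes that reached it, 2789 were lower and 4612 higher, with a median of 0.18. The largest differences were in Taldo1 (transaldolase), at 284 CPM in WT and 162 CPM in the knockout (-0.80), Pgls (-0.62) and G6pdx, the entry enzyme (-0.56). At 2000 to 4000 UMIs per cell the split was again 2 higher and 5 lower, with a median of -0.25 and none at least 1.5-fold apart. Of all 7452 genes there, 4030 were higher and 3422 lower.

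Genes listed for pyruvate entry to mitochondria were mostly lower in the knockout. Of 12 listed genes 7 reached the minimum, all 7 were lower in the knockout library, and the median was -0.46. Of all 7401 genes, 2789 were lower. At least 1.5-fold lower were 2 of the 7 (13% of all genes). Mpc1, a subunit of the mitochondrial pyruvate carrier, was at 95.4 CPM in WT and 54.4 CPM in the knockout (-0.80). Its partner Mpc2 was at 133 and 89.2 CPM (-0.57), and Dld, a subunit of pyruvate dehydrogenase, at 29.0 and 18.3 CPM (-0.64). The intervals of Pdhb (-0.29 to 0.14) and Dlat (-0.43 to 0.17) included no difference. The 7 also include a kinase gene, Pdk3 (-0.46). Unlike the 10 members, this list was no nearer to 0 at matched depth: at 2000 to 4000 UMIs all 7 were lower with a median of -0.60 and 5 were at least 1.5-fold lower, against 11.7% of genes.

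Over the 8 strata of WT lane and Ccr2 class, the genes most like the median level of the 8 enzymes (all members but Hif1a and Slc2a1) were Gltp and Bccip (Pearson's r 0.95 each), Prdx2 and Ndufa3 (0.94 each) and Ftl1 (0.93), among 2404 genes with a mean of at least 50 CPM, of which 0.582% reached 0.9. The strata share a library and a lane within it. The enzymes themselves ran from 0.91 for Aldoa to -0.28 for Pgk1, with Eno1 at 0.02, and Hif1a was at -0.84. The levels were not centred per gene, so the median mostly followed enzymes of middle level, such as Aldoa and Pkm. The r of Aldoa is thus in part with itself. Whether the 8 enzymes share a course over these strata cannot be read from these values.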
